A study of Mus musculus with 10 samples.

Results

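The feedback inhibitors of the CIS/SOCS family and the transcriptional repressor Bcl6 were followed in brown adipose tissue (BAT) of mice that lack STAT5 in adipocytes. The members were chosen by name, with earlier results of these data known. They comprise Cish, Socs2, Socs3, Socs4, Socs5, Socs6, Socs7 and Bcl6, which are 8 of 24454 genes counted. All 8 passed the filter on low counts and were among the 13568 genes tested. RNA-Seq was performed on BAT of 5 control and 5 Stat5Adipoq mice, with 1 library per mouse. The sample titles label all libraries as basal. All animals were male, 2 months old, on a C57BL/6N background and fed ad libitum. In Stat5Adipoq mice both Stat5a and Stat5b are floxed and deleted by a Cre recombinase under the Adipoq (adiponectin) promoter, which is active in adipocytes, so that endothelial, immune and stromal cells of the tissue keep their STAT5. Controls are described in the methods as littermates with floxed Stat5 alleles and no Cre, and as wild type in the labels.

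Cytokines and growth hormone activate JAK kinases at their receptors, and the kinases phosphorylate STAT proteins, which then enter the nucleus and switch on target genes. Among these targets are the inhibitors of the same pathway: CIS, the product of Cish, and the SOCS proteins bind phosphorylated receptors or kinases through an SH2 domain and recruit a ubiquitin ligase through the SOCS box at their C-terminus. Cish is a textbook target of STAT5. Bcl6 encodes a zinc finger repressor best known from germinal centre B cells and follicular helper T cells, and in lymphocytes STAT5 and BCL6 oppose each other at shared sites.

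STAT5 dimers recognise the palindromic consensus TTCNNNGAA, and the promoter windows of the members were read for it first, because Cish and Bcl6 carry it in a cluster. Windows run from 250 bases before to 50 bases after a transcription start site and were taken from RefSeq for GRCm38.p6, which held 5 windows for 4 of the members, namely Cish, Socs3, Socs4 and 2 start sites of Bcl6. Since the consensus reads the same on both strands, 1 search covers both. The stretches that hold a match are given 5′ to 3′ on the strand of the gene, with the matches in capitals.
Cish, chr9:107296654-107296683, plus strand: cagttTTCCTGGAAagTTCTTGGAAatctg
Bcl6, second start, chr16:23981353-23981461, minus strand: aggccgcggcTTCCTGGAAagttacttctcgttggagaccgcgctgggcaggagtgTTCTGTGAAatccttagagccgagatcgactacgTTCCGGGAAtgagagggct
Bcl6, first start, chr16:23988952-23988980, minus strand: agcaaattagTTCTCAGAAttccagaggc
Socs3, chr11:117969502-117969530, minus strand: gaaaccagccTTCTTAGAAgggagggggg

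The Cish window held 2 matches, which begin at the start site itself (position 107296659 on chromosome 9) and 11 bases after it. In the GENCODE models this start site lies within exon 1. The second start of Bcl6, at 23981283 on chromosome 16 and within intron 1 of the GENCODE model, held 3 matches at 168, 122 and 88 bases before the start. The first start of Bcl6, at 23988852, held 1 match 118 bases before it, the Socs3 window held 1 match 154 bases before the start, and the Socs4 window held none of these letters. Of all 32851 promoter windows 8.30% held at least 1 match, 0.457% held at least 2 and 0.033%, that is 11 windows, held at least 3. Counted by gene instead of by window, 9.55% of all 27025 genes with a window held a match. Among genes tested for expression 885 of 10756 with a window held a match, which is 8.23%. Of the genes that were lower in Stat5Adipoq BAT it was 17 of 146 (11.6%), Cish included, and of those that were higher 6 of 157 (3.82%). These shares were not tested against each other. The same consensus with a spacer of 4 instead of 3 bases was found in 6.95% of all windows and in none of those of the members. A match is a string of letters and not a measured binding site.

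**Figure D1:**
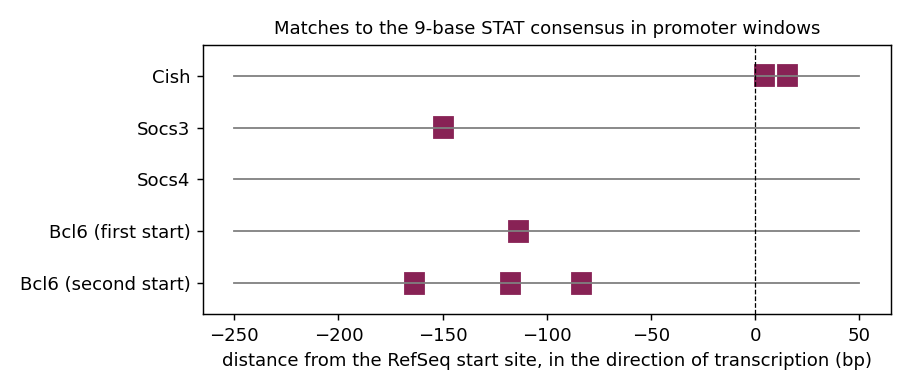
Position of matches to the consensus in the 5 RefSeq promoter windows, by distance from the start site in bases along the direction of transcription (x axis). Filled blocks are matches and grey lines are the windows. The pair in Cish sits at and just after the start site, whereas the 3 matches of the second Bcl6 start lie 168 to 88 bases before it.

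The deleted genes were examined as a check of the labels. Stat5a reads dropped from 105 ± 17.0 to 17.1 ± 2.05 CPM and Stat5b reads from 83.8 ± 5.51 to 21.8 ± 0.723 CPM (SD, n = 5 each) between control and Stat5Adipoq BAT, where CPM are counts scaled to library size by edgeR's TMM method. Depth ranged from 8488129 to 19514904 counts on genes per library. The quasi-likelihood F test of edgeR, at a threshold of 0.05 for the Benjamini-Hochberg adjusted p-value, called 368 of 13568 genes, or 2.71%, of which 178 (1.31%) were lower and 190 (1.4%) higher in Stat5Adipoq BAT. Markers of brown adipocytes were present in every library, with summed levels of 18919 to 29504 CPM. Control replicate 3 stood apart by its skeletal muscle genes, with a summed level of 3777 CPM in comparison with 36.3 to 347 CPM in the other libraries, and control replicate 4 by its depth and macrophage markers (215 CPM in comparison with 136 to 175 CPM).

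Cish was the single member that passed the threshold. It was measured at 30.4, 40.1, 37.5, 31.5 and 41.4 CPM in control replicates 1 to 5 and at 9.73, 17.1, 3.23, 9.47 and 3.12 CPM in Stat5Adipoq replicates 1 to 5. The genotypes did not overlap, as the highest Stat5Adipoq library remained below the lowest control. Mean levels were 36.2 ± 5.01 and 8.53 ± 5.78 CPM (SD, n = 5 each), a fold change of 0.240 with 95% confidence limits of 0.139 to 0.415. On the log2 scale the change was -2.06 (SE 0.36, adjusted p = 0.011, edgeR quasi-likelihood test), and the exact permutation test gave p = 0.0079 (two-sided), the smallest that 5 against 5 libraries allow. The level was lower in 5 of 5 Stat5Adipoq libraries. With this call 1 of the 8 members was lower and 0 were higher, beside 1.31% and 1.4% of all genes tested, and 2 members had an unadjusted p below 0.05 in edgeR's test, beside 15.2% of all genes. DESeq2 and limma-voom also called 1 lower and 0 higher. The libraries of the genotypes did not overlap for 1 of the 8 members, beside 4.39% of all genes tested. The count of Cish reads was 312 to 623 per control library and 35 to 267 per Stat5Adipoq library.

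The call for Cish held with each library left out in turn, with log2 fold changes of -2.51 to -1.85 and adjusted p of 0.0031 to 0.034 in edgeR's test. Without control replicates 3 and 4 together the log2 fold change was -2.10 (adjusted p = 0.020, edgeR). Cish lies on chromosome 9 of GRCm38 from 107296659 to 107302784. Gene models on the opposite strand, Gm17040 and Gm17041, cover 15.96% of its exon bases, and since the strand setting of the authors' counting is not given in the sources used here, reads of these genes cannot be told apart from those of Cish. Of its 50-base words 13.2% occur in other genes. In a bulk tissue, fewer cells of a type and less RNA per cell cannot be told apart either.

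**Figure D2:**
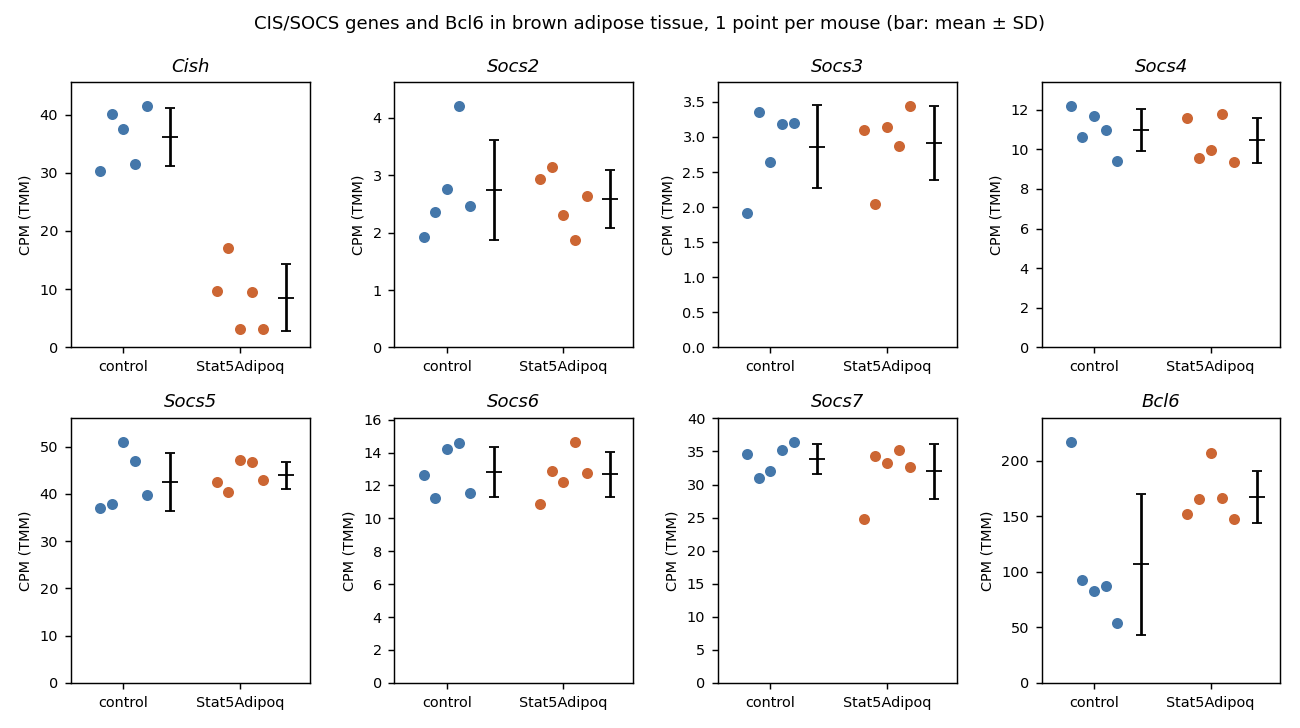
Levels of the 8 members in CPM (y axes, each from 0) in control and Stat5Adipoq BAT, with 1 point per mouse and the mean ± SD beside the points (n = 5 per genotype). Cish is the member whose genotypes do not overlap, and control replicate 1 (217 CPM) stands above the other Bcl6 controls.

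The Cish mRNA left in Stat5Adipoq BAT differed widely among the 5 mice. As a percentage of the control mean it was 26.9, 47.3, 8.93, 26.2 and 8.61% in replicates 1 to 5. Replicate 2 retained the most and replicates 3 and 5 the least, so that the highest level was 5.49 times the lowest, whereas this ratio was 1.36 among controls. The coefficient of variation was 67.7% in Stat5Adipoq and 13.8% in control BAT. The deleted genes themselves did not spread in this manner: what was left of Stat5a ranged from 15.0 to 19.7% and of Stat5b from 25.1 to 27.3% of the control mean, with coefficients of variation of 12.0% and 3.32% in Stat5Adipoq BAT. Within libraries, the log2 ratio of Cish to Stat5a was -1.54 ± 0.23 (SD, n = 5) in control and -1.29 ± 1.05 (SD, n = 5) in Stat5Adipoq BAT. This difference of 0.25 gave p = 0.66 in an exact permutation test (adjusted p = 0.66 over 16 ratios), and the ratio to Stat5b differed by -0.42 (exact permutation p = 0.38, adjusted p = 0.41). A difference in size between the fall of Cish and those of Stat5a and Stat5b was therefore not detected, with SDs above 1 on the log2 scale among the Stat5Adipoq libraries.

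Among the Stat5Adipoq libraries, the one with the most residual Cish was also the one with the highest summed level of T cell markers. This sum covers the 8 of 9 listed markers that were counted and rests on 23 to 117 counts per library. It was 3.19, 6.48, 2.12, 3.20 and 2.00 CPM in Stat5Adipoq replicates 1 to 5. In control replicates 1 to 5 it was 8.90, 4.27, 5.29, 5.91 and 5.12 CPM. Controls did not share this order, as replicate 1 had the most T cell markers and the least Cish (30.4 CPM). None of the 8 genes was at 0 in all libraries. Between genotypes all 5 T cell markers tested had a log2 fold change below 0 (median -0.81), and 0 passed the threshold in edgeR's test (1 with unadjusted p below 0.05). Schwann cell markers followed the order of Cish in as many Stat5Adipoq libraries, as for either list 3 of 5 libraries held the same rank as for Cish. Their sum was 370.1, 298.6, 251.96, 273.1 and 245.5 CPM in Stat5Adipoq replicates 1 to 5 and ranged from 181 to 604 CPM in controls. There 3 of 5 libraries held the rank of Cish, in comparison with 1 of 5 for T cell markers. The order as a whole was not shared among controls. Replicate 4 had the highest Schwann cell sum but only 31.5 CPM of Cish. Replicate 5 had the most Cish (41.4 CPM) but a Schwann cell sum of 270 CPM. Of the 9 Schwann cell markers 8 had a log2 fold change below 0 (median of the list -0.82), 0 were called lower and 1, S100b, was called higher (log2 fold change 1.07, adjusted p = 0.00085, edgeR). None of the 9 was at 0 in all libraries. Macrophage markers were lowest in Stat5Adipoq replicate 3 (136 CPM), and the other 4 libraries lay between 168 and 175 CPM. Brown adipocyte markers summed to 22495.9, 20635.5, 25563.3, 25704.8 and 26021.2 CPM in Stat5Adipoq replicates 1 to 5. Their sum was thus lowest in the library with the most Cish and highest in that with the least. For this list 0 of 5 libraries held the rank of Cish in either genotype, a count that does not register an opposite order. Among all marker lists compared, 3 of 5 was the largest number at the rank of Cish. Fibroblast markers also reached it in controls, with 0 of 5 in Stat5Adipoq BAT. The part of any of these cells in the level or the fall of Cish mRNA was not tested.

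Over the 10 libraries, Il18bp had the pattern most like Cish among 10151 other genes with at least 50 counts on average. Il18bp encodes the secreted binding protein that neutralises interleukin-18. Pearson's r of log2 CPM was 0.978, and 0.969 after the mean of each genotype was removed. Il18bp was measured at 7.56, 8.80, 8.30, 7.18 and 8.77 CPM in controls and at 3.69, 4.17, 2.40, 3.75 and 2.56 CPM in Stat5Adipoq BAT, so that the 2 libraries with the least Cish also had the least Il18bp. Its mean fell from 8.12 ± 0.728 to 3.31 ± 0.785 CPM (SD, n = 5 each), with -1.28 as log2 fold change (adjusted p = 0.0018, edgeR). The counts of Il18bp were low, at 69 to 142 per control library and 26 to 65 per Stat5Adipoq library. The next in order were Lpcat3 (r = 0.951), an acyltransferase of phospholipid remodelling, and Satb1 (r = 0.941), a chromatin organiser. Stat5b and Stat5a took places 41 and 44 with r = 0.871 and 0.868. Without the genotype means, Lsm12 (r = 0.922) and Dhx40 (r = 0.921) followed Il18bp, while Stat5a and Stat5b had r = 0.187 and 0.297. All these values share the same 10 libraries and describe them only.

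**Figure D3:**
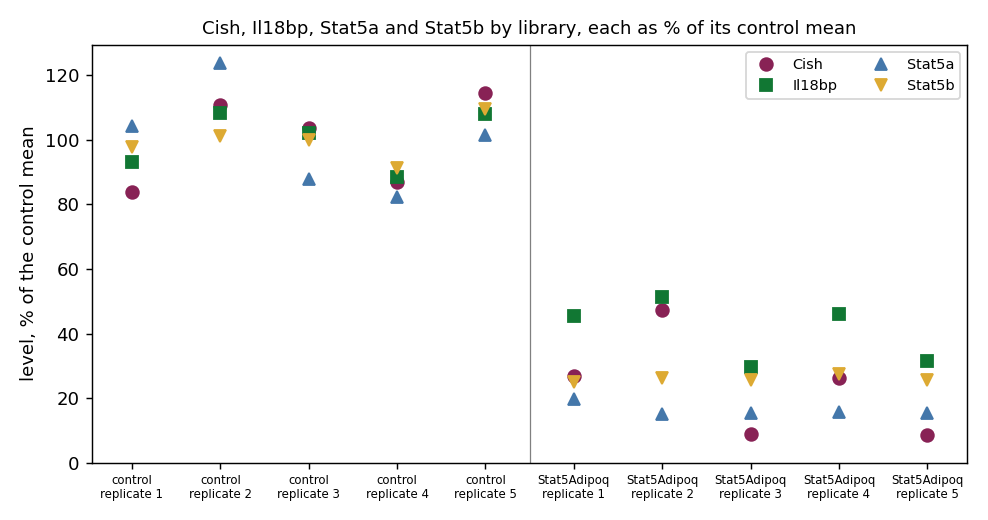
Levels of Cish, Il18bp, Stat5a and Stat5b in each library as a percentage of the gene's control mean (y axis, from 0), with the 5 control libraries on the left and the 5 Stat5Adipoq libraries on the right. In Stat5Adipoq replicates 3 and 5 Cish is at 8.93 and 8.61% while Stat5b is at 25.6% in both.

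Socs2 and Socs3, the other members known as cytokine-induced inhibitors, were expressed at low levels in both genotypes. SOCS2 restrains growth hormone receptor signalling, and SOCS3 acts on gp130, the leptin receptor and their JAK kinases. Socs2 was measured at 1.91, 2.36, 2.77, 4.20 and 2.47 CPM in control and at 2.93, 3.14, 2.31, 1.87 and 2.64 CPM in Stat5Adipoq BAT. Socs3 was measured at 1.91, 3.36, 2.65, 3.18 and 3.20 CPM in control and at 3.10, 2.05, 3.14, 2.86 and 3.43 CPM in Stat5Adipoq BAT. The genotypes overlapped for both genes. Socs2 averaged 2.74 ± 0.869 and 2.58 ± 0.504 CPM (SD, n = 5 each), which gave -0.10 as log2 fold change (95% confidence limits -0.60 to 0.40, adjusted p = 0.90, edgeR). Socs3 averaged 2.86 ± 0.593 and 2.92 ± 0.525 CPM (SD, n = 5 each), which gave 0.01 (95% confidence limits -0.41 to 0.44, adjusted p = 0.99, edgeR). These genes had 17 to 83 and 20 to 63 counts per library. The interval of Socs2 leaves out a fall of the size measured for Cish. Of the 50-base words of Socs2 7.23% occur in other genes, and those of Socs3 occur in no other.

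Socs4, Socs5, Socs6 and Socs7 are the members less tied to cytokine induction. SOCS4 and SOCS5 are known from regulation of the epidermal growth factor receptor, and SOCS6 and SOCS7 from binding to insulin receptor substrates and other adaptor proteins. Socs5 was the most abundant of the 4, at 37.1 to 51.0 CPM (median 39.7) in control and 40.5 to 47.1 CPM (median 43.0) in Stat5Adipoq BAT. Socs7 ranged from 30.9 to 36.5 CPM in controls and from 24.8 to 35.3 CPM in Stat5Adipoq BAT, with replicate 1 below the other libraries. Socs6 ranged from 11.3 to 14.6 and from 10.9 to 14.7 CPM, and Socs4 from 9.41 to 12.2 and from 9.35 to 11.8 CPM. The genotypes overlapped for all 4 genes. Mean levels in control and Stat5Adipoq BAT were 11.0 ± 1.06 and 10.4 ± 1.15 CPM for Socs4, 42.5 ± 6.12 and 43.9 ± 2.87 CPM for Socs5, 12.8 ± 1.52 and 12.7 ± 1.36 CPM for Socs6, and 33.9 ± 2.27 and 32.0 ± 4.16 CPM for Socs7 (SD, n = 5 each). Their log2 fold changes lay between -0.08 and 0.05, with adjusted p of 0.74 to 0.96 in edgeR's test. The 95% confidence limits on the log2 scale were -0.30 to 0.15 for Socs4, -0.15 to 0.25 for Socs5, -0.25 to 0.21 for Socs6 and -0.28 to 0.12 for Socs7. These intervals are narrower than those of Socs2 and Socs3, and 97 to 927 counts per library stand behind them. With any single library left out, or with any other normalization, filter or test that was run, none of Socs2 to Socs7 passed the threshold. Within Socs6, 11.7% of 50-base words occur in other genes, in comparison with 0.57% in Socs4 and none in Socs5 and Socs7.

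**Figure D4:**
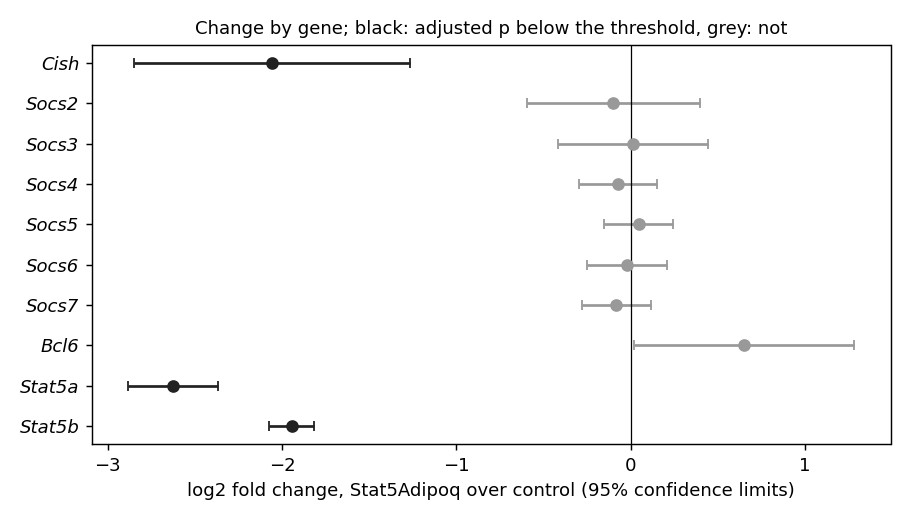
Change of the 8 members and of Stat5a and Stat5b in Stat5Adipoq against control BAT (x axis, log2 fold change from edgeR with 95% confidence limits, n = 5 per genotype). Cish, Stat5a and Stat5b are drawn in black as they pass the adjusted p-value threshold, Socs2 to Socs7 lie around 0, and Bcl6 lies at 0.65.

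Bcl6 was higher in Stat5Adipoq BAT than in 4 of the 5 controls but did not pass the adjusted threshold. It was measured at 217, 92.9, 82.4, 87.6 and 53.8 CPM in control replicates 1 to 5 and at 152, 166, 207, 166 and 148 CPM in Stat5Adipoq replicates 1 to 5. Every Stat5Adipoq library exceeded control replicates 2 to 5, whereas control replicate 1 exceeded every Stat5Adipoq library. Mean levels in control and Stat5Adipoq BAT were 107 ± 63.6 and 168 ± 23.4 CPM (SD, n = 5 each). The log2 fold change was 0.65 (SE 0.29, 95% confidence limits 0.02 to 1.28, adjusted p = 0.31, edgeR), and the exact permutation test gave an unadjusted p = 0.048.

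The result for Bcl6 depended on control replicate 1. Without this library the controls averaged 79.2 ± 17.5 CPM (SD, n = 4), the genotypes no longer overlapped, and the log2 fold change was 1.08 (SE 0.15, adjusted p = 0.0057, edgeR), past the threshold. With any other library left out it was 0.48 to 0.69 and did not pass. Control replicate 1 also had the highest summed level of immediate-early genes among the 10 libraries (1041 CPM, in comparison with 245 to 905 CPM in the other controls and 180 to 917 CPM in Stat5Adipoq BAT) and the highest summed level of T cell markers (8.90 CPM). None of the 14 immediate-early genes passed the threshold between genotypes (0 with unadjusted p below 0.05, edgeR), and Egr2 had the smallest p (log2 fold change -0.84, adjusted p = 0.38, edgeR). B cell markers summed to 2.77 to 5.08 CPM in control and 4.34 to 5.62 CPM in Stat5Adipoq BAT. The part of immediate-early genes or of lymphocytes in the Bcl6 level was not tested, and the labels name no difference between this library and the other controls. Bcl6 lies on the minus strand of chromosome 16 of GRCm38 from 23965050 to 23988866 and shares no 50-base words with other genes. The genes most like it in pattern, added after its values were seen, were Acer3 (r = 0.880), Zfp280c (r = 0.877) and Cwf19l1 (r = 0.850) over the 10 libraries, and none of the 3 passed the threshold between genotypes.

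To compare the members with each other, the log2 ratio of each pair was formed within every library and tested between genotypes. Of 28 pairs 7 passed an adjusted p-value threshold of 0.05, and these were the 7 pairs that contain Cish (exact permutation p = 0.0079 and adjusted p = 0.032 for each). The 7 pairs share the same Cish counts and are therefore not independent results. Cish fell relative to every other member, with differences of the log2 ratio from -2.28 (to Socs7) to -3.17 (to Bcl6). Among the 15 pairs without Cish and Bcl6, differences ranged from -0.13 to 0.15 and adjusted p values were at least 0.62 (exact permutation tests). The log2 ratio of Socs2 to Socs7 over Bcl6 was lower in Stat5Adipoq BAT, that is Bcl6 was higher relative to them, by differences of -0.89 to -0.75 that did not pass, with adjusted p of 0.14 to 0.32 in exact permutation tests. Without control replicate 1, 13 pairs passed, the 7 with Cish and the 6 of Bcl6 with Socs2 to Socs7. With any of the other 9 libraries left out no pair passed. The smallest p that 4 against 5 libraries allow is 0.016 (exact permutation), and the smallest adjusted p was then 0.063. Cish kept its direction in all 7 pairs.

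Per length of exon, Bcl6 was the most abundant member in both genotypes and Cish lost its place. Levels in CPM per kilobase of exon (RPKM) in control BAT were 30.3 ± 18.0 for Bcl6, 9.92 ± 1.37 for Cish, 9.14 ± 1.32 for Socs5, 4.83 ± 0.324 for Socs7, 2.09 ± 0.248 for Socs6, 1.59 ± 0.153 for Socs4, 1.12 ± 0.232 for Socs3 and 1.02 ± 0.322 for Socs2 (SD, n = 5). In this order the libraries of Cish and Socs5 overlapped, as did those of Socs2 with Socs3 and Socs4, while all other neighbours were separate. In Stat5Adipoq BAT Cish was at 2.34 ± 1.58 RPKM (SD, n = 5), in place 4 behind Bcl6 (47.6 ± 6.64), Socs5 (9.45 ± 0.618) and Socs7 (4.57 ± 0.592), and its libraries, from 0.854 to 4.69 RPKM, overlapped those of Socs7, Socs6, Socs4, Socs3 and Socs2. The summed level of the 7 CIS/SOCS genes was 29.7 ± 2.04 RPKM in control and 22.0 ± 1.51 RPKM in Stat5Adipoq BAT (SD, n = 5). Cish provided 33.4 ± 4.03% of this sum in control and 10.4 ± 6.54% in Stat5Adipoq BAT, and Socs5 30.7 ± 2.92% and 43.0 ± 4.06%. With the length of the longest transcript in place of all exons, Cish was at 12.7 RPKM in controls, and Socs2 (1.161 RPKM in Stat5Adipoq BAT) changed places with Socs3.

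**Figure D5:**
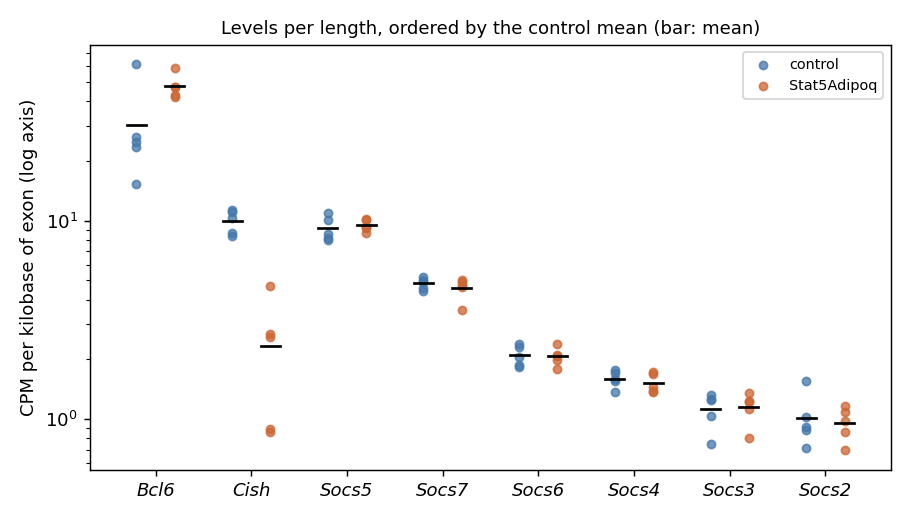
Levels of the members in CPM per kilobase of exon (y axis, log scale) in control and Stat5Adipoq BAT, with 1 point per mouse, bars at the means (n = 5 per genotype) and genes in the order of the control mean. Cish moves from 9.92 to 2.34 RPKM, whereas the points of Socs2 to Socs7 overlap between the genotypes.

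The pathway around these inhibitors was examined with gene lists. Among 11 JAK kinases and STATs, Stat5a and Stat5b were lower and none was higher. With these 2 included, 4 had an unadjusted p below 0.05 in edgeR's test. The 4 JAK kinases did not pass the threshold, with Jak1 at 136 ± 3.80 and 146 ± 4.83 CPM and Jak2 at 36.9 ± 4.73 and 39.1 ± 2.81 CPM (SD, n = 5 each). Of 22 cytokine and growth hormone receptors tested, 1 was lower and 0 were higher, and 3 had an unadjusted p below 0.05 in edgeR's test. The lower gene was Ghr, the growth hormone receptor, at 278 ± 11.8 CPM in control and 211 ± 9.73 CPM in Stat5Adipoq BAT (SD, n = 5 each, log2 fold change -0.40, adjusted p = 0.0023, edgeR). Epor, the erythropoietin receptor, had a log2 fold change of -0.82 (adjusted p = 0.076, edgeR) and passed the threshold with DESeq2 (adjusted p = 0.015), with limma-voom (adjusted p = 0.041) and in edgeR's test without Stat5Adipoq replicate 3 (adjusted p = 0.035). Of 14 other negative regulators of the pathway, among them phosphatases, PIAS proteins and CBL ligases, 0 passed in either direction with edgeR, DESeq2 or limma-voom, and 0 had an unadjusted p below 0.05 in edgeR's test. The smallest p in this list was that of Usp18, with a log2 fold change of 0.41 (adjusted p = 0.42, edgeR). Socs1, the remaining SOCS gene, was below the filter and averaged 0.475 CPM in control and 0.245 CPM in Stat5Adipoq BAT. The median log2 fold change of these 14 regulators was 0.02, that of the 22 receptors -0.08 and that of all genes tested 0.00 (-0.0028 before rounding).

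The SOCS box acts through elongins B and C, cullin 5 and RING proteins. Of 11 genes of this ligase 0 passed the threshold with edgeR, DESeq2 or limma-voom and 1 had an unadjusted p below 0.05 in edgeR's test, with a median log2 fold change of -0.06. Cul5 was at 44.2 CPM in control and 41.0 CPM in Stat5Adipoq BAT, Elob at 48.3 and 44.2 CPM, and Eloc at 64.7 and 68.1 CPM. Ube2d1, a ubiquitin-conjugating enzyme, was this gene (log2 fold change -0.20, adjusted p = 0.29, edgeR). Of 18 other genes with a SOCS box that were tested, 0 passed with edgeR (2 with unadjusted p below 0.05) or limma-voom and 1 with DESeq2. That gene was Asb2, which is expressed in skeletal muscle and had the smallest p in edgeR's test (log2 fold change -2.50, adjusted p = 0.14, edgeR). Its level in control replicate 3, the library with the muscle genes, was 15.03 CPM, and without this library its log2 fold change was -1.14 (adjusted p = 0.19, edgeR). With limma-voom it was -1.44.

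Partners and targets of BCL6 were treated in the same way. Of 16 co-repressors and related factors 0 passed the threshold with edgeR, DESeq2 or limma-voom and 0 had an unadjusted p below 0.05 in edgeR's test, with a median log2 fold change of -0.01. Hdac4 had the smallest p (log2 fold change 0.17, adjusted p = 0.41, edgeR), and Ncor1 and Hdac3 had log2 fold changes of -0.10 and -0.07. Of 16 genes that BCL6 represses in lymphocytes, 1 was lower and 0 were higher, with a median of -0.02. In edgeR's test 2 of them had an unadjusted p below 0.05. The lower gene was Ccnd2 (cyclin D2), at 40.8 ± 6.05 CPM in control and 26.7 ± 5.97 CPM in Stat5Adipoq BAT (SD, n = 5 each; log2 fold change -0.61, adjusted p = 0.037, edgeR). Its call was lost in edgeR's test when control replicate 1, 2, 4 or 5 or Stat5Adipoq replicate 2, 3, 4 or 5 was left out, with adjusted p of 0.059 to 0.11. Irf4, a transcription factor of lymphocytes and adipocytes, had a log2 fold change of -1.24 (adjusted p = 0.31, edgeR), and the median for the list lay close to that of all genes tested.

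Cish was also set beside other known STAT5 targets. Of 12 tested, 2 were lower and 0 were higher, with a median log2 fold change of -0.15. In edgeR's test 4 of the 12 had an unadjusted p below 0.05, beside 15.2% of all genes. The log2 fold change was below 0 for 9 and above 0 for 3. Igf1, the growth factor induced by growth hormone, was at 35.3 ± 8.13 CPM in control and 16.2 ± 5.49 CPM in Stat5Adipoq BAT (SD, n = 5 each; log2 fold change -1.12, adjusted p = 0.017, edgeR). This call was lost without Stat5Adipoq replicate 3 (adjusted p = 0.058, edgeR) or 4 (adjusted p = 0.050, edgeR, above the threshold before rounding). The other was Ccnd2, which belongs to both lists. Pim1, a kinase induced by STAT5, was at 229 ± 51.1 and 181 ± 28.9 CPM (SD, n = 5 each; log2 fold change -0.34, adjusted p = 0.30, edgeR), and Bcl2l1 at 45.9 ± 5.07 and 47.8 ± 2.95 CPM (SD, n = 5 each; log2 fold change 0.06, adjusted p = 0.80, edgeR).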

How the data were processed

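The authors aligned single-end reads of 50 bases to GRCm38 with STAR 2.5.0b, counted them over exons with featureCounts 1.5.0-p1, and deposited counts per gene without normalization. The strand setting is not given in the sources used here. Their deposited table of the comparison gives fold changes on the log2 scale with their p-values (DESeq2 1.16.1), and only its gene symbols and identifiers were used.

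Samples were grouped by genotype from the labels. Genes were kept where counts divided by DESeq2 size factors summed to more than 45 over the libraries, which left 13568. Genotypes were compared with edgeR 4.0.16 (quasi-likelihood F test, TMM, no covariate) and Benjamini-Hochberg adjustment. SE were derived from the F statistics and the log2 fold changes. Ratios between genes were log2 ratios of counts plus 0.5, tested by exact two-sided permutation over all 252 assignments, and p-values were adjusted over 28 or 16 ratios. The procedure was tested on a single simulated data set. There the share of false calls was above the adjusted p-value threshold with edgeR, DESeq2 and limma-voom.

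The members and gene lists were chosen with earlier results of these data known. The lists, cell type markers included, held 242 genes, of which 240 were matched by symbol. Named from each list were the genes that passed, or otherwise that with the smallest p. Genes such as Jak1, Jak2, Cul5, Elob, Eloc, Ncor1, Hdac3, Pim1, Bcl2l1, Socs1, Epor and Irf4 were named after their values were seen. Exon lengths and shared 50-base words come from GENCODE M21, positions and promoters from RefSeq for GRCm38. Alternatives were DESeq2 1.42.0, limma-voom 3.58.1, size factors of DESeq2 in edgeR, no scaling beyond library size, other filters on low counts, a replicate block, a pseudocount of 1, the longest transcript and leaving out each library. Leaving out control replicates 3 and 4 together was chosen after seeing the data. No pair of libraries within a genotype agreed within sampling noise (chi-square per degree of freedom at least 5.31).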

Additional observations from a re-analysis of the deposited data

Results flagged for a closer look

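Each group of 5 libraries was searched, for each of the 8 members, for a single library far from the others by Dixon's test at the 95% level. Of 16 groups 2 were flagged, where chance flags about 1 in 20, that is 0.8 of 16. Bcl6 in control replicate 1 was at 217 CPM, while the other 4 controls lay between 53.8 and 92.9 CPM. Socs7 in Stat5Adipoq replicate 1 was at 24.8 CPM, while the other 4 Stat5Adipoq libraries lay between 32.6 and 35.3 CPM.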

How the results depend on the processing

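No result that was compared changed direction past the threshold under any alternative. Cish was called lower under all 18 alternatives (log2 fold change -2.51 to -1.85), and Bcl6 was called under 1 of 18, without control replicate 1 (its log2 fold change was 0.47 without control replicates 3 and 4 together). DESeq2's Wald test called 334 genes lower and 326 higher, and the counts with 1 library left out were 86 to 224 lower and 96 to 219 higher. The number of receptors lower was 2 with DESeq2, with limma-voom and without control replicates 3 and 4 together, and 1 to 2 with 1 library left out. DESeq2 also called 1 other SOCS-box gene lower (Asb2). With 1 library left out, the members called higher numbered 0 to 1 (Bcl6 log2 fold change 0.48 to 1.08), genes that BCL6 represses 0 to 1 lower, other STAT5 targets 0 to 2 lower and member pairs past the threshold 0 to 13.

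No pairing by replicate number was seen in expression, as correlations between libraries of the same number were -0.26 to 0.19 over genes. These correlations do not show whether mice of the same number shared a litter or batch. With a replicate block edgeR called 273 genes, and Cish remained called (log2 fold change -2.22, adjusted p = 0.021). The members, Stat5a, Stat5b, Ghr, Epor, Igf1, Ccnd2, Asb2, Il18bp and Lpcat3 were followed with the block. Of these only Lpcat3 lost its call (adjusted p = 0.066, edgeR), and none gained one. Other genes named here were not followed one by one. Sign flips within numbers, which allow no p below 0.063, passed 0 member pairs and 0 ratios to Stat5a and Stat5b. Without the block 7 and 14 passed, where the deletion itself sets the 14. With the longest transcript as length, Cish was at 12.7 RPKM in control and Socs2 at 1.161 RPKM in Stat5Adipoq BAT. The counts of Socs2 and Socs3 were low (17 to 83 per library).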
